A study of Drosophila melanogaster with 2 samples.

Results

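Peaks of the protein CG14711 were examined at 10 genes of the IMD pathway of Drosophila melanogaster: imd, Rel, PGRP-LC, PGRP-LE, Fadd, Dredd, key, IKKbeta, Tak1 and Tab2. All 10 were matched by symbol in the gene annotation, among 13945 protein-coding genes and 18164 genes of any class. The gene group was chosen by the measured peak signals of these same data, so its counts, signals and ranks are given as a description and no test was made on them. The measurements came from chromatin immunoprecipitation and sequencing (ChIP-seq) of whole adult females, whose age the labels give as unknown. Both samples were from 1 transgenic line with stable expression of CG14711 carrying GFP at its C terminus, and the tagged protein was recovered with an antibody against GFP. Which promoter drives the transgene is not given in the labels. The 2 samples, numbered as biological replicates 3 and 4, formed 1 group and came from separate biosamples of that line. The labels name no infection or treatment for either sample.

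The IMD pathway is the fly's main response to bacteria whose cell wall holds the DAP type of peptidoglycan, in the fat body, the gut and other tissues. The receptors PGRP-LC and PGRP-LE bind fragments of that peptidoglycan and engage the adaptor Imd, which recruits Fadd and the caspase Dredd. Ubiquitin chains then bring in the kinase Tak1 with its partner Tab2, and the kinase complex of IKKbeta and Kenny (encoded by key) acts on the NF-kappaB factor Relish, whose release switches on genes of antimicrobial peptides.

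CG14711 peaks lay at the promoters of 6 of the 10 genes. Among them, 1 peak at imd, nearer to a start site of the gene Dp1, was among the strongest of the whole series. A gene was given a promoter peak when the summit of a peak, its point of highest signal, lay within 500 bp of any of the gene's transcription start sites (TSSs). In the irreproducible discovery rate (IDR) list, imd, Rel, PGRP-LE, Dredd, IKKbeta and Tab2 had such a peak, against 30.7% of protein-coding genes. The IDR measures how well ranked peaks repeat between replicates. Compared by coordinates, this list held the 5654 strongest of the peaks called on both replicates pooled. A peak in it need not repeat in each replicate. When each summit was given only to its nearest TSS, 4 of 10 genes kept a promoter peak (imd, Rel, PGRP-LE and IKKbeta), against 22.7%. For imd this was a weaker peak and not the strong one. With summits anywhere in the gene span counted beside promoter summits, Tak1 joined the 6 genes, giving 7 of 10 against 34.2%. All 10 genes had a promoter peak in the list of 30000 peaks called on both replicates pooled, where the share of protein-coding genes was 60.9%. The same held for all 10 in the list of replicate 3, against 59.8%, and in that of replicate 4, against 60.2%.

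The genes lie on 4 chromosome arms, and together they held 12 summits of the 5654 in the IDR list. Of these, 9 were promoter summits and 3 lay deeper in the gene body. All 9 promoter summits were upstream of the nearest start site of the member gene. The strongest imd summit and the weaker PGRP-LE summit were upstream of an internal start site only. They lay inside the gene, 1650 and 707 bp past its first start site. The share of all IDR promoter summits that lie upstream was not counted. The signal of a peak is the authors' own value and ranks peaks within a list only, and read depth is unknown because the files used hold no read counts. The 12 summits had a median signal of 253 (range 151 to 3911), beside 257 over all IDR peaks and 268 over the 3619 IDR peaks at promoters. Thus 6 of the 12 lay above the median of the list. The strongest imd peak and a peak within Tab2 stood above the other 10, which lay between 151 and 444. The pooled list placed 33 peaks at the 10 genes, 18 at promoters and 15 in gene bodies.

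**Figure D1:**
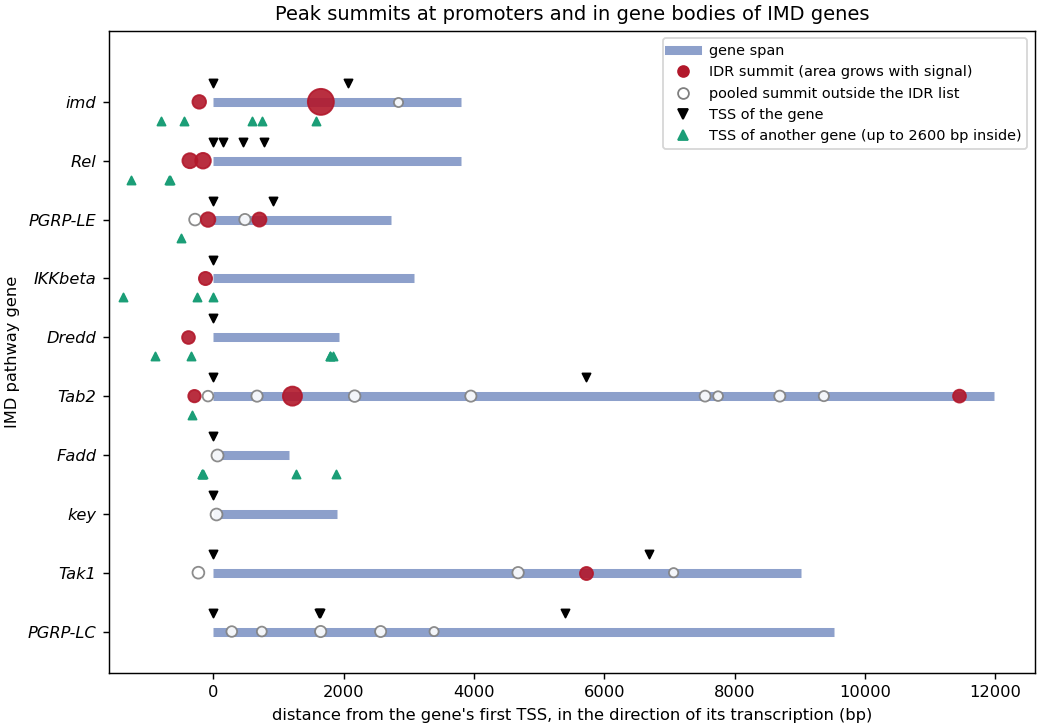
Each row is 1 gene drawn from its first start site, with the distance in bp on the horizontal axis, filled circles for IDR summits (area grows with signal) and open circles for pooled summits outside the IDR list; triangles mark start sites of the gene and of its neighbours. The largest circle is at imd (signal 3911), while Fadd, key and PGRP-LC carry open circles only.

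Among the receptors, PGRP-LE had IDR peaks at both of its start sites. PGRP-LE (FBgn0030695) encodes an intracellular receptor and occupies chrX:15801153-15803880 on the minus strand. Its stronger promoter peak, at chrX:15803859-15804054, had its summit 81 bp upstream of the first start site. Its pooled signal was 318, rank 2152, and its signal was 133 in replicate 3 (rank 1846) and 195 in replicate 4 (rank 2428). The other, at chrX:15803055-15803278, lay in an intron 204 bp upstream of the internal start site. There the pooled signal was 275, rank 2588, with 104 in replicate 3 (rank 2695) and 181 in replicate 4 (rank 2662). The 2 summits of PGRP-LE were thus closest in rank in replicate 4 and farthest apart in replicate 3. The nearest neighbour is sd, which encodes Scalloped, the TEAD transcription factor of the Hippo pathway. It starts 490 bp away on the opposite strand, and the stronger summit lay between the genes, 409 bp from the sd start site. Weaker pooled peaks with signals of 114 and 94.2 at the same promoters did not reach the IDR list. The genome sequence within 50 bp of each summit is shown because these peaks sit at the only receptor gene of the group with an IDR promoter peak. Both are the plus strand of dm6, at chrX:15803911-15804011 and chrX:15803123-15803223, and capitals mark the TATA box word TATAAA, the only searched word found in either window. Each window is named for its nearest start site, which lies outside it.
PGRP-LE first start site: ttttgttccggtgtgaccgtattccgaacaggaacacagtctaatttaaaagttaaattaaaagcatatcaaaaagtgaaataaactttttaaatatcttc
PGRP-LE internal start site: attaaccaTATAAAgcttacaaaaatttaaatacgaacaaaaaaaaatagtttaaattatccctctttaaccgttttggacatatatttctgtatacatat

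PGRP-LC (FBgn0035976, chr3L:9338810-9348336, plus strand), the transmembrane receptor of the pathway, had no IDR peak at a promoter or within its span. Its best pooled promoter peak, at chr3L:9340257-9340656, had a summit 3 bp from the third of its 4 start sites. The signal was 91.5 in the pooled list (rank 9606), 35.8 in replicate 3 (rank 11806) and 63.7 in replicate 4 (rank 8756). Both replicates thus held a summit within 10 bp of a PGRP-LC start site, at ranks well outside the best 5654. The signal was not confined to start sites. The best pooled body peak had signal 84.9 (rank 10395). In replicate 3, body peaks at ranks 7797, 8189 and 9472 stood above the promoter peak. In replicate 4 the best body peak ranked below it, at 14791. The nearest IDR summit was 10511 bp from PGRP-LC, with signal 326, close to the gene UGP. The closest start site of another gene is that of PGRP-LA, 2755 bp away.

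The adaptor gene imd carried the strongest peak of the group. It encodes the death-domain protein at the head of the intracellular cascade (FBgn0013983, chr2R:18409796-18413599, minus strand). The peak at chr2R:18411650-18412281 had a pooled signal of 3911 and ranked 26 of 30000 peaks, and 23 among promoter peaks. Its signal was 1507 in replicate 3 (rank 27) and 2416 in replicate 4 (rank 25). The summits of the replicates were 8 bp apart, the smallest distance among the 12. By position this peak was shared with another gene. The summit lay 417 bp upstream of the internal imd start site, in an intron of the longer imd transcript and 1650 bp inside the first start site. It was 78 bp from a start site of Dp1, which encodes a KH-domain protein that binds dodeca-satellite DNA and is transcribed from the opposite strand and overlaps imd. The Dp1 start site was therefore the nearer one, and the peak was not assigned to imd when only the nearest start site counted.

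The second imd peak, at chr2R:18413776-18413966, was 216 bp upstream of the first imd start site and 236 bp from another Dp1 start site. Its signal was 232 in the pooled list (rank 3183), 94.1 in replicate 3 (rank 3156) and 161 in replicate 4 (rank 3087). It lay below the median of the IDR list, and it is the peak by which imd kept a promoter peak under nearest assignment. In rank, the strong imd peak stood between peaks at 2 other shared promoters. Directly above it, at rank 25 with signal 3915, was the peak between CG7523 and Mps1, the latter a mitotic checkpoint kinase (chr3R:17670603-17671337; rank 19 in replicate 3 and 36 in replicate 4). Directly below it, at rank 27 with signal 3896, was the peak at Rox8, which encodes an RNA-binding protein, and CG5986 (chr3R:24047793-24048451; rank 21 in replicate 3 and 34 in replicate 4).

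**Figure D2:**
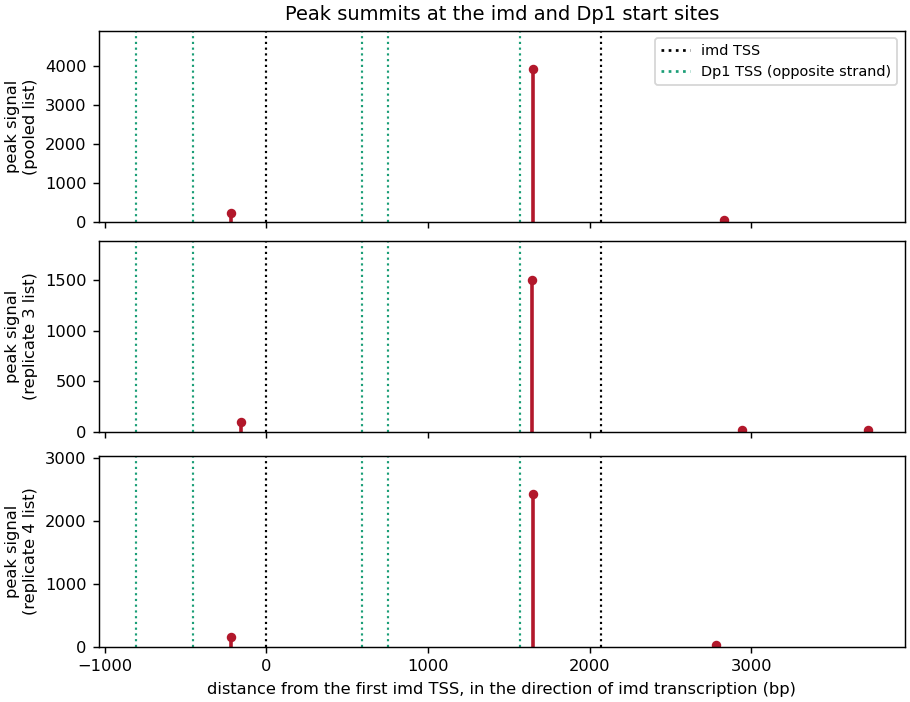
Peak signal (vertical axis, authors' value, own scale in each panel) against distance from the first imd start site in bp, for the pooled list and both replicate lists, with dotted lines at the start sites of imd and Dp1. In each panel the tallest summit stands next to a Dp1 start site and upstream of the internal imd start site, with signals of 3911, 1507 and 2416.

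Fadd, the adaptor that joins Imd to the caspase (FBgn0038928, chr3R:22034455-22035617, plus strand), had no IDR peak at its promoter. Its best pooled promoter peak (chr3R:22034318-22034717) had a signal of 126 and rank 6786, with the summit 63 bp from the start site. Replicate 4 had its summit at the same base, with signal 93.4 and rank 5763. The replicate 3 summit nearest to it was 97 bp from the Fadd start site, with signal 22.3 and rank 19735. The strongest promoter summit of replicate 3 was a separate one, 154 bp upstream of Fadd and 3 bp from a start site of pit, with signal 29.6 and rank 14590. The replicates thus differed in rank and in which summit was the strongest. The partners of this promoter are pit, which encodes a DEAD-box RNA helicase and starts 157 bp from Fadd, CG45099 and CG6015, all with a start site within 500 bp of the pooled summit. The nearest IDR summit was 97 bp beyond the end of Fadd, with signal 193 and rank 3991. That summit was 3 bp from another start site of pit and 1259 bp from the Fadd start site.

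Dredd encodes the caspase that cleaves Imd and Relish (FBgn0020381, chrX:633622-635545, minus strand). Its single IDR peak, at chrX:635730-636129, had a signal of 176 in the pooled list (rank 4498), 71.9 in replicate 3 (rank 4724) and 119 in replicate 4 (rank 4382). The summit was 385 bp upstream of the Dredd start site and 40 bp inside su(sable), in an untranslated or noncoding exon of that divergent gene for an RNA-binding protein. The peak was thus centred on the neighbour's start site, 345 bp from that of Dredd.

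The ubiquitin-binding partner of Tak1, Tab2 (FBgn0086358, chr2R:19292529-19304508, plus strand), had 3 IDR peaks, the most of any gene in the group. The strongest was over 500 bp from any start site of Tab2. Its summit was in an intron, 1214 bp from the first start site (chr2R:19293356-19293929), with signal 1056 and rank 463 in the pooled list, 390 and rank 428 in replicate 3, and 670 and rank 497 in replicate 4. Another body peak, at chr2R:19303777-19304176 in an untranslated or noncoding exon near the end of the gene, had signal 182 (rank 4304), with rank 4542 in replicate 3 and 4163 in replicate 4. Its summit was 1195 bp from a start site of Acadvl, which encodes a mitochondrial acyl-CoA dehydrogenase. The promoter peak of Tab2 was the weakest of the 12. At chr2R:19292179-19292291 it had signal 151 and rank 5437, and its summit was 289 bp upstream of the Tab2 start site and 44 bp upstream of mip40, which encodes a subunit of the Myb-MuvB complex. In replicate 4 a summit lay 1 bp from it (signal 122, rank 4261). In replicate 3 the nearest summit was 275 bp away, with signal 43.2 and rank 9457 and was closer to the Tab2 start site. The promoter summit of Tab2 was thus matched in replicate 4 and not in replicate 3.

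The gene key (FBgn0041205, chr2R:24785514-24787411, minus strand) encodes Kenny, the regulatory subunit of the IKK complex. No IDR peak lay at its promoter or in its span, and the nearest IDR summit was 6274 bp away, near asRNA:CR43257, with signal 1302. A pooled peak at chr2R:24787163-24787562 had its summit 48 bp from the single start site of key. Its signal was 120 (rank 7159), with 46.4 in replicate 3 (rank 8601) and 75.3 in replicate 4 (rank 7360). The position repeated in both replicates while the signal stayed outside the best 5654. The nearest start site of another gene, CG3589, is 3856 bp away.

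Short words recognised by known fly promoter factors were searched on both strands within 50 bp of the 12 summits. A match describes the letters only, and a word missing from these windows says nothing of the factor. The DNA replication-related element TATCGATA, the M1BP word GGTCACACT, core promoter motif 7 (CATCNCTA) and the GAGA word GAGAG were in 0 of the 12 windows. Over all IDR summits they were in 2.69%, 1.31%, 2.28% and 9.53%. The NF-kappaB consensus, the kind of site that Relish binds, was also in 0 of 12 windows, beside 2.95% of all IDR summits. The BEAF core CGATA, which the first of these words contains, was in 1 window beside 19.2% of IDR summits, at the strong imd peak. That window also held CAACCCTG, starting 27 bp after the summit. This word recurs among the summits of the series, in 2.74% of them. The GATA word AGATAA was in 1 window, at the second imd peak, beside 7.84%. The TATA box word TATAAA was the most frequent and was in 4 of the 12 windows, beside 21.5% of all IDR summits. These windows were at the PGRP-LE summit upstream of its internal start site, both Rel summits and the Tab2 intron. The E-box CAGCTG was in 1 window, at IKKbeta, beside 4.53%. The windows had a GC content of 21.8% to 51.5% with a median of 30.2%, beside a median of 32.7% over all IDR summits (5th to 95th percentile, 19.8% to 52.5%). The strong imd window had the highest GC content of the 12.

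The kinase genes Tak1 and IKKbeta differed in where their peaks lay. Tak1 (FBgn0026323, chrX:20515908-20524928, minus strand) encodes the kinase at which the IMD and JNK responses divide. Its single IDR peak was in an intron (chrX:20519106-20519377), 969 bp upstream of the internal start site, with signal 193 and rank 4001 in the pooled list. The signal there was 76.3 in replicate 3 (rank 4342) and 110 in replicate 4 (rank 4808). At the first start site the best pooled peak (chrX:20524957-20525356) had signal 117 and rank 7314, with its summit 229 bp upstream. There replicate 3 gave 68.2 at rank 5139, inside its best 5654, and replicate 4 gave 59.1 at rank 9443, outside them. The Tak1 promoter was thus the only member promoter without an IDR peak that stood among the best 5654 of a replicate. IKKbeta (FBgn0024222, chr3R:16046347-16049421, minus strand), the catalytic subunit of the IKK complex, had a single IDR peak at chr3R:16049345-16049744. The signal was 204 in the pooled list (rank 3726), 63.7 in replicate 3 (rank 5670, just outside the best 5654) and 152 in replicate 4 (rank 3274). Its summit was 124 bp upstream of IKKbeta and of lncRNA:CR45212, which share a start site, and 125 bp from the divergent CG5013. The summit therefore lay at the middle of the interval between the divergent start sites, which are 249 bp apart. The windows of both kinase genes are shown to set an intergenic divergent promoter beside an intron, as the plus strand of dm6 at chr3R:16049495-16049595 and chrX:20519167-20519267. Capitals mark the E-box CAGCTG in the first, and no searched word was found in the second.
IKKbeta promoter: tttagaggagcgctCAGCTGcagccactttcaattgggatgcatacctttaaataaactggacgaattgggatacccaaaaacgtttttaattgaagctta
Tak1 intron: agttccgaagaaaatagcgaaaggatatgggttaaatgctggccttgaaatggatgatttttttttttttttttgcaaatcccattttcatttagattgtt

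Rel encodes Relish, the NF-kappaB factor at the end of the cascade (FBgn0014018, chr3R:9044183-9047977, minus strand). A single IDR interval upstream of Rel, at chr3R:9047961-9048476, held 2 summits. The summit 158 bp upstream of the first Rel start site had signal 444 and rank 1454 in the pooled list, with 108 in replicate 3 (rank 2555) and 337 in replicate 4 (rank 1280). It was the strongest promoter summit of the group that was nearest to the member's own start site. The other summit, 359 bp upstream, had signal 363 and rank 1850, with 52.3 in replicate 3 (rank 7384) and 245 in replicate 4 (rank 1855). That summit was nearer to the start sites of Mst85C, 309 bp away, and Nmdmc, 315 bp away. Nmdmc encodes a mitochondrial folate enzyme and its span, on the same strand, encloses Rel. Both summits were among the best 5654 of replicate 4, and only the one nearer to Rel was in that of replicate 3. Their windows are shown because both hold the TATA box word, in capitals, on the plus strand of dm6 at chr3R:9048085-9048185 and chr3R:9048286-9048386. The first window has 3 matches, of which 2 overlap on opposite strands and appear as 1 run of capitals.
Rel nearer summit: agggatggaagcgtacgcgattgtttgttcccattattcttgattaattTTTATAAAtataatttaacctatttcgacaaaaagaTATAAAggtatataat
Rel farther summit: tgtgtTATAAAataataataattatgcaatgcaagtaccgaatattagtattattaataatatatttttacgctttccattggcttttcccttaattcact

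For each of the 6 genes with an IDR promoter peak, a promoter summit lay within 500 bp of another gene's start site. Of the 9 promoter summits, 7 had the start site of a partner within 500 bp, and 5 were nearest to the member's own start site. The nearer Rel summit and the PGRP-LE summit upstream of its internal start site had no partner within that distance. The share of all IDR promoter summits with a partner was not counted. Across the genome, 3081 of the 4276 protein-coding genes with an IDR promoter peak had another gene's start site within 1000 bp. The partners at these 6 genes were Dp1 at imd, sd at PGRP-LE, su(sable) at Dredd, CG5013 and lncRNA:CR45212 at IKKbeta, mip40 at Tab2, and Mst85C and Nmdmc at Rel. The summit was nearer to the partner at Dredd (40 bp), Tab2 (44 bp), the strong imd peak (78 bp) and the farther Rel summit. The genes were therefore also split by whether another gene starts within 1000 bp, a split chosen after seeing the data. Of the 7 members with such a neighbour 6 had an IDR promoter peak, Fadd being the exception, beside 45.8% of the 6726 protein-coding genes of that kind. Of the 3 without one (PGRP-LC, key and Tak1), 0 had an IDR promoter peak, beside 16.6% of 7219 genes. A close neighbour thus went with a higher share of peaks across the genome, and the contribution of crowded start sites to the members' count was not tested. The peak lists cannot tell which of the genes at a shared promoter the bound protein acts on.

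The replicates placed most of these summits close together, while their ranks differed. Because the IDR list held the strongest pooled peaks, and the pooled signal draws on both replicates, this agreement was in part built in. It was not compared with that of all IDR peaks. Replicate summits nearest to each of the 12 IDR summits were 8 to 276 bp apart (median 41.5 bp), and for 11 of 12 a summit lay within 100 bp in both replicates. The exception was the Tab2 promoter. All 12 were among the 5654 best peaks of replicate 4 and 9 were among those of replicate 3. The 3 outside the latter were the IKKbeta promoter, the farther Rel summit and the Tab2 promoter. For the strongest promoter peak of each gene in each replicate, which at Fadd and Tab2 were different summits, the ratio of the larger to the smaller replicate rank ran from 1.08 at imd and Dredd to 2.53 at Fadd. It was 2.22 at Tab2, 1.996 at Rel, 1.84 at Tak1 and 1.73 at IKKbeta. The rank was worse in replicate 3 for 8 of 10 genes, the exceptions being PGRP-LE and Tak1. The 8 include Fadd and Tab2, where the ranks belong to different summits. The share of all genes with a worse rank in replicate 3 was not counted, so this may not be particular to the members. The imd peak therefore had the closest replicate summits of the 12. A weak peak did not always go with a large ratio, since key (1.17) and PGRP-LC (1.35) repeated closely outside the best 5654 of both replicates.

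**Figure D3:**
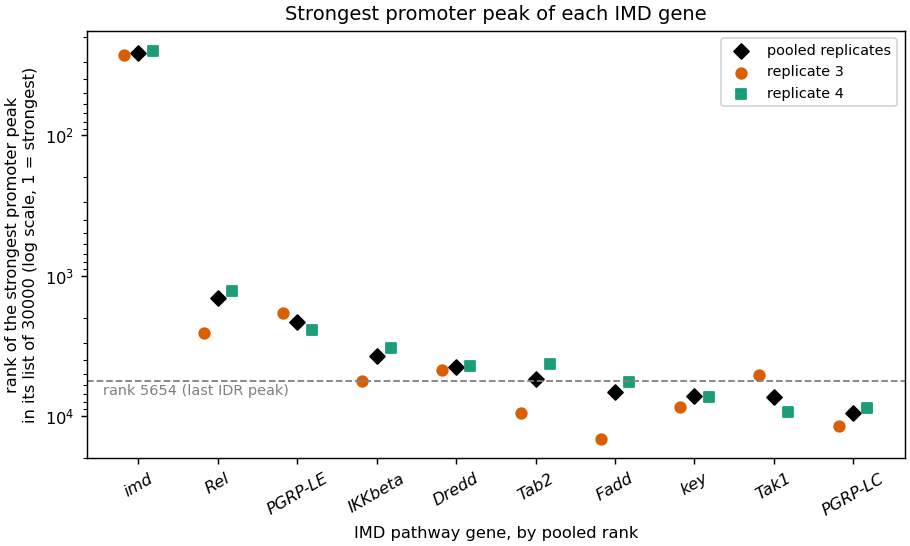
Rank of the strongest promoter peak of each gene (vertical axis, log scale, 1 is the strongest) in the pooled list and in the lists of replicates 3 and 4, with a dashed line at rank 5654, the last IDR peak. The 3 points of imd lie together at ranks 25 to 27, and those of Fadd, where the replicates' strongest summits differ in position, spread from 5763 to 14590.

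Some genes stood close to the limits used. On the distance limit of 500 bp, the imd summit at 417 bp and the Dredd summit at 385 bp were just inside. The Mst85C start site at 510 bp from the nearer Rel summit was just outside, and the Tak1 summit was farther out at 969 bp. On signal, the Tab2 promoter peak at 151 was just inside the IDR list, whose weakest peak had 146. The Fadd promoter peak at 126 was outside it, at rank 6786 of the pooled list. The promoter peaks of key at 120 (rank 7159) and Tak1 at 117 (rank 7314) came next.

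The other immune genes were taken from 5 lists, and 28 of their 72 genes had an IDR promoter peak. Of 23 further IMD regulators, 10 had one (43.5%), with signals of 165 to 2687 and a median of 581, and the gene's own start site was nearest for 9 of the 10. Grouped by role after the values were seen, 7 of 9 ubiquitin enzymes and ligases had a peak, beside 30.7% of protein-coding genes, and dnr1 and trbd had none in the IDR list. These were ben, which encodes the Ubc13 conjugating enzyme (signal 2687, rank 79), the ubiquitin ligase gene POSH (1112), the deubiquitinase gene scny (791, nearest to Ppat-Dpck), Uev1A for the partner of Ubc13 (647), CYLD for a deubiquitinase (329), eff for a conjugating enzyme (219) and Diap2 for the ligase that acts on Imd (165). Of these, ben, POSH, scny, Uev1A and CYLD had signals above the IDR list median of 257, and eff and Diap2 had signals below it. Among 7 further peptidoglycan recognition protein genes, PGRP-LB alone had one (282). PGRP-LB encodes an amidase that breaks peptidoglycan down. Of the other 7 regulators, the scavenger receptor gene pes (694) and Charon, for an ankyrin-repeat protein (515), had one.

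Antimicrobial peptide genes, some of which Relish switches on, had no peak of this kind. Of the 14 in the list, 0 had an IDR promoter peak, beside 30.7% of protein-coding genes, and 2 had one in the pooled list, beside 60.9%. These were AttD for an attacin, with signal 55.8 at rank 15894, and Mtk for metchnikowin, with signal 46.4 at rank 18969. In replicate 3, CecA1 and Dro had promoter peaks at ranks 29233 and 25331, and in replicate 4, Dro and Mtk had them at ranks 23797 and 16777. All of these ranks fell in the weaker part of the lists. AttA and AttB are near-identical copies, as are PGRP-SC1a and PGRP-SC1b, and the cecropin genes are related copies. How similar these sequences are was not measured here. Peaks at such genes can depend on how the authors treated reads that match more than 1 place, which is not given in the sources used here.

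Of 17 Toll pathway genes, 8 had an IDR promoter peak (47.1%). They were cact for the inhibitor of the Toll NF-kappaB factors (1027), GNBP1 (979, nearest to GNBP2) and GNBP3 (230) for recognition proteins, pll for a kinase (588), Myd88 (336) and tub (157) for adaptors, Dif for an NF-kappaB factor (179) and Pli for the Pellino protein (174). The JNK branch, which leaves the IMD pathway at Tak1, had 7 of 10 (70%), but most of these were weak. The kinase gene Mkk4 had 1590, nearest to SLIRP2, and slpr, also for a kinase, had 558. The others were egr for the TNF ligand (216), kay (198) and Jra (157) for the AP-1 subunits, msn for a kinase (186) and bsk for JNK itself (185, nearest to CG31717). In the JAK/STAT pathway 3 of 8 genes had one (37.5%), namely hop for the kinase (255), Stat92E for the transcription factor (169) and dome for the receptor (152, nearest to Ubqn). These shares are to be read beside the 30.7% of all protein-coding genes. The share at the 10 IMD genes fell between those of the Toll list and the JNK list, and whether any list differs from the genome or from another list was not tested.

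**Figure D4:**
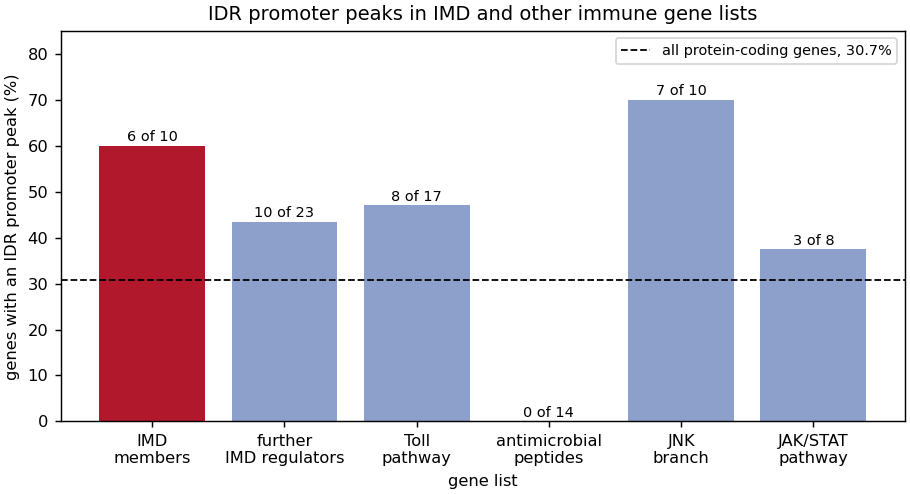
Share of genes (vertical axis, %) with an IDR promoter peak in the 10 IMD genes and in 5 further immune lists, with the counts above the bars and a dashed line at the 30.7% of all protein-coding genes. The bars range from 0 of 14 antimicrobial peptide genes to 7 of 10 JNK branch genes.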

How the data were processed

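Peaks of CG14711-eGFP from 1 group of 2 samples were read from 4 deposited lists in narrowPeak format with dm6 coordinates, per the labels and the deposited text records. The records state that a list was called per replicate with a control, another on both replicates pooled, and an optimal IDR list from these. The control was not analysed here. Chromatin was sheared to 200 to 800 bp, per the labels. The aligner and the caller, like the IDR cutoff, were not given in the sources used here. Each deposited signal is the authors' value per peak, on a scale that differs between lists, and the deposited −log10 q-value stops at a maximum (4.15 for all 5654 IDR peaks). The deposited summit offset was added to the start. Compared by coordinates, the IDR peaks were the 5654 pooled peaks with the highest signals. Depth is unknown, so no interval is given.

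Genes and 23581 TSS positions on 6 chromosome arms came from Ensembl 115 (BDGP6.54, the sequence of dm6), without transposable elements, and sequence from RefSeq. Of 83 list symbols, 1 did not match. Promoter peaks had a summit within 500 bp of a TSS. Body peaks had a summit in the gene span and over 500 bp from every TSS of that gene. Members and lists were chosen with earlier results of these data known. All members and promoter partners are named, with every list gene that has an IDR promoter peak and the promoter peaks directly above and below the strongest member peak in rank. Replicate values are those of the nearest summit or, per gene, of the strongest promoter peak. Counting was tested on simulated data. Python 3.11.15, numpy 2.4.6, pandas 2.3.3 and matplotlib 3.10.9 were used. The alternatives tried were 250 and 1000 bp windows, the stronger part of the IDR list, all pooled peaks, each replicate alone, nearest TSS, peak overlap and first TSS.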

Additional observations from a re-analysis of the deposited data

How the results depend on the processing

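Counts of genes with an IDR promoter peak were recomputed under 9 settings. Among the 2827 strongest IDR peaks (17.8% of protein-coding genes), 3 of the 10 IMD genes (imd, Rel and PGRP-LE), 4 Toll genes, 2 JNK genes and 0 JAK/STAT genes had one. With all pooled peaks (60.9%) it was 10 IMD genes, 18 further regulators, 15 Toll genes and 2 antimicrobial peptide genes. A 250 bp window (26.4%) left 1 JAK/STAT gene. These settings keep fewer or more peaks, or assign peaks over a shorter distance, by construction. With the 5654 best peaks of a single replicate (29.4% for replicate 3 and 30.5% for replicate 4), the counts were 5 to 6 for the IMD genes, 10 to 12 for further regulators, 7 to 8 for Toll, 7 to 8 for JNK, 2 to 3 for JAK/STAT and 0 for antimicrobial peptides. Replicate 4 alone kept all 6 reported IMD genes, and replicate 3 alone lost IKKbeta and Tab2 and gained Tak1. Apart from the JAK/STAT count with the 250 bp window, the other settings stayed within 1.5 times the reported counts. For the IMD genes these were 4 (250 bp), 7 (1000 bp, 34.2%), 4 (nearest TSS, 22.7%), 6 (peak overlap, 32.1%) and 6 (first TSS, 28.4%). No paired analysis was possible because the series has 1 group. With 2 samples of 1 line, no untagged or treated group and no read counts, the values describe these preparations, and a weak peak outside the IDR list does not show that the protein was absent.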
